A study of Petromyzon marinus with 21 samples.

Results

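Piwi-1 (PMZ_0008974) and Piwi-2 (PMZ_0008779) are 2 of the 63 probes counted on a NanoString panel of the sea lamprey, Petromyzon marinus, a jawless vertebrate. They were picked out by their gene names. The deposited count table places both among the 6 probes of its reference class, beside 43 target probes, 8 negative controls and 6 positive controls. It marks Piwi-2 as a positive control, as it does the other 4 reference probes, while Piwi-1 carries its gene name only. Neither identifier matched an entry of the RefSeq gene table used here (0 of 2), so no position in the genome and no sequence is given.

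On the nCounter, probes that carry a colour barcode bind the RNA of the genes on the panel, and the barcodes of a lane are counted one by one without amplification. The samples were adult testes, read in 3 lanes that the labels call technical replicates, and whole embryos of 6 stages, with 3 biological samples per stage. A stage is named by its day of development after fertilization, with D2.5 between D2 and D3, and the first is D1 and the last D5. No genotype, strain or treatment is given beyond incubation at 18° C in 10% Holfretter's solution, which all embryos shared. Lane names show 3 runs. The first holds the 12 lanes of D1 to D3, the second the 6 lanes of D4 and D5, and the third the 3 testes lanes. The names of 4 lanes, 2 at D4 and 2 at D5, give a stage and a tag that matches no numbered sample, and these lanes are called a and b. D4 lane a and D5 lanes a and b carry the same tag, and the D5 pair differ in it by a last digit.

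PIWI proteins are members of the Argonaute family known for their role in the germ line. They carry piRNAs, small RNAs that guide the silencing of transposable elements. In zebrafish and Drosophila, PIWI products are loaded into the egg by the mother and are later largely restricted to germ cells. The early sea lamprey embryo eliminates a portion of the genome from its somatic cells, while the germ line retains it. In whole embryos, fewer cells of a type and less RNA per cell cannot be told apart.

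Each lane was judged against its own 8 negative controls, whose mean lay between 3.00 and 8.13 raw counts in embryos. Background was set at the mean + 2 SD of these controls, which gave 7.78 to 23.2 raw counts over the 18 embryo lanes. Target totals lay between 450972 and 473907 counts in testes and between 504 and 15415 in embryos. D1 replicate 2, D2 replicate 3 and D3 replicate 1 stood apart with 124 to 181 counts of EF1A_A, an elongation factor 1 alpha probe, against 307 to 863 in the other 15 embryo lanes. Counts of the 3 testes lanes agreed within sampling noise (chi-square per degree of freedom of 0.942 to 1.28) and were counted as 1 sample. Pairs of lanes of 1 embryo stage gave 2.47 to 152.3. D2.5 replicate 3 differed from replicates 1 and 2 at 83.7 and 111, and D3 replicate 3 at 60.2 and 152.3. Replicates 1 and 2 gave 5.84 at D2.5 and 8.11 at D3. Other large values set D5 replicate 1 against lanes a and b (100.3 and 106.8) and D4 replicate 1 against lane a (62.5).

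Piwi-2 was clearly detected at D1 and was near or within background afterwards. Its raw counts at D1 were 41, 35 and 57 in replicates 1, 2 and 3, over backgrounds of 13.2, 17.9 and 17.8. They were 13, 13 and 12 at D2, 8, 10 and 18 at D2.5, and 8, 8 and 17 at D3. Every D1 lane thus exceeded every one of the 15 later lanes, in which the count was at most 20. Piwi-2 was the only one of the 41 tested probes with raw counts in that order, a share of 2.44%. The D4 counts were 7 in replicate 1, 10 in lane a and 6 in lane b, and the D5 counts were 18, 17 and 20. Piwi-2 was above background in 3 of 3 lanes at D1, in 2 each at D2 and D2.5, in 1 at D5 and in 0 at D3 and D4, which makes 8 of 18. Of the 49 target and reference probes, 6 (12.2%) were above background in all 3 D1 lanes, and Piwi-2 was among them.

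Piwi-1 was also highest at D1, but less evenly. Its raw counts at D1 were 49, 17 and 39 in replicates 1, 2 and 3, and the 17 counts of replicate 2 lay just under that lane's background of 17.9. They were 19, 14 and 3 at D2, 22, 17 and 19 at D2.5, and 3, 10 and 10 at D3. In raw counts the lowest D1 lane overlapped D2 and D2.5 but not D3. At D4 Piwi-1 had 9, 10 and 1 counts in replicate 1, lane a and lane b, and at D5 it had 35, 24 and 21. All 3 D5 counts thus exceeded the 17 counts of D1 replicate 2. It was above background in 2 of 3 lanes each at D1 and D2, in 3 each at D2.5 and D5 and in 0 at D3 and D4, which makes 10 of 18. Neither probe therefore had a measured level above background at D3 or D4. Over the 49 target and reference probes, the number of embryo lanes above background ran from 0 to 18. The counts of 10 for Piwi-1 and 8 for Piwi-2 thus do not set them apart.

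**Figure D1:**
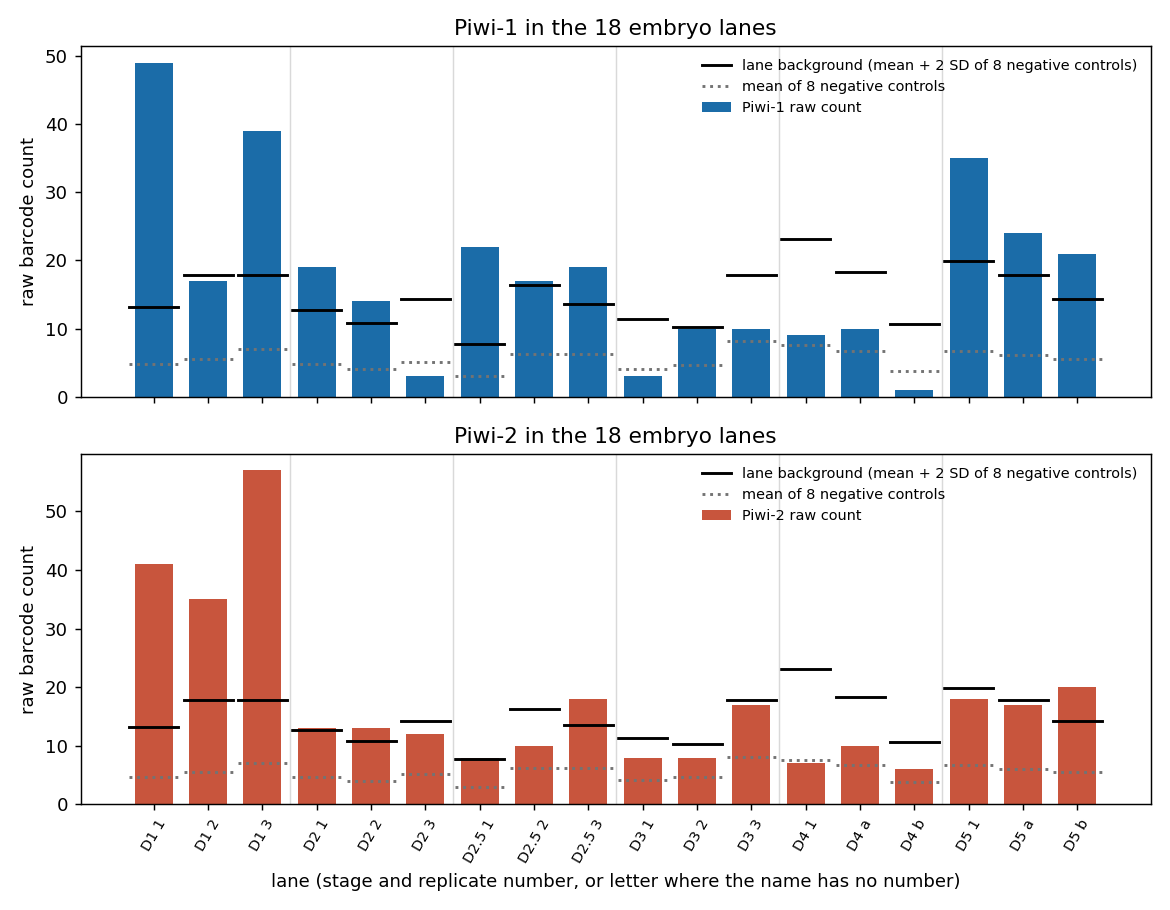
Raw barcode counts (y axis) of Piwi-1 (top) and Piwi-2 (bottom) in the 18 embryo lanes (x axis), with the background of each lane as a black line and the mean of its 8 negative controls as a dotted line. The 3 D1 bars of Piwi-2, at 35 to 57, stand above all later bars, and no D3 or D4 bar of either probe reaches its line.

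Lanes were then scaled by EF1A_A and HCFC-1 (host cell factor C1, a regulator of transcription), the reference probes above background in every embryo lane. RPS9, a ribosomal protein probe of that class, was above background in 17 of 18 and was not used. It had 14 to 32 raw counts at D1, 600 to 1950 at D3 and 2666 to 5518 at D5. EF1A_A had 181 to 617, 180 to 863 and 346 to 431 in the same order, and HCFC-1 33 to 65, 35 to 79 and 47 to 141. Scaling by RPS9 was not run. A scaled count is the raw count divided by the lane's factor, whose mean over the embryo lanes is 1. Each mean is given ± SD over 3 lanes. In the first run, the D1 lanes of Piwi-1 averaged 42.4 ± 14.3 scaled counts, the D2 lanes 12.6 ± 4.68, the D2.5 lanes 13.7 ± 2.82 and the D3 lanes 7.94 ± 2.87. In the second run, Piwi-1 averaged 6.85 ± 4.72 scaled counts in D4 lanes and 26.4 ± 3.14 in D5 lanes. The D1 lanes of Piwi-2 averaged 57.0 ± 15.4 scaled counts, the D2 lanes 17.8 ± 9.69, the D2.5 lanes 8.47 ± 3.87 and the D3 lanes 13.6 ± 7.51. Its D4 lanes then averaged 8.94 ± 2.29 and its D5 lanes 18.9 ± 4.76. Both probes thus had their highest mean at D1 and their next highest at D5. Since D4 and D5 were read in the second run, stage and run cannot be told apart in such an order. For Piwi-2 the D5 mean was close to that at D2 and to the mean D5 background of 17.6, with 1 of 3 lanes above its own. The stage means of the lane background on the same scale were 22.9, 18.8, 8.72, 16.8, 19.3 and 17.6 from D1 to D5. By mean, Piwi-1 ran D1, D5, D2.5, D2, D3, D4 from highest to lowest. Its D1 lanes did not overlap D5 (lowest 32.1 against highest 29.6) and its D5 lanes did not overlap D2.5 (23.4 against 16.6), while the other neighbours overlapped. Piwi-2 ran D1, D5, D2, D3, D4, D2.5, and only D1 did not overlap its neighbour (47.0 against 22.3 at D5). On this scale the D1 lanes of 2 of the 41 tested probes (4.88%) exceeded all 15 later lanes, and these were Piwi-1 and Piwi-2. For Piwi-1 this counts D1 replicate 2, whose 36.3 scaled counts were under its own background of 38.2.

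**Figure D2:**
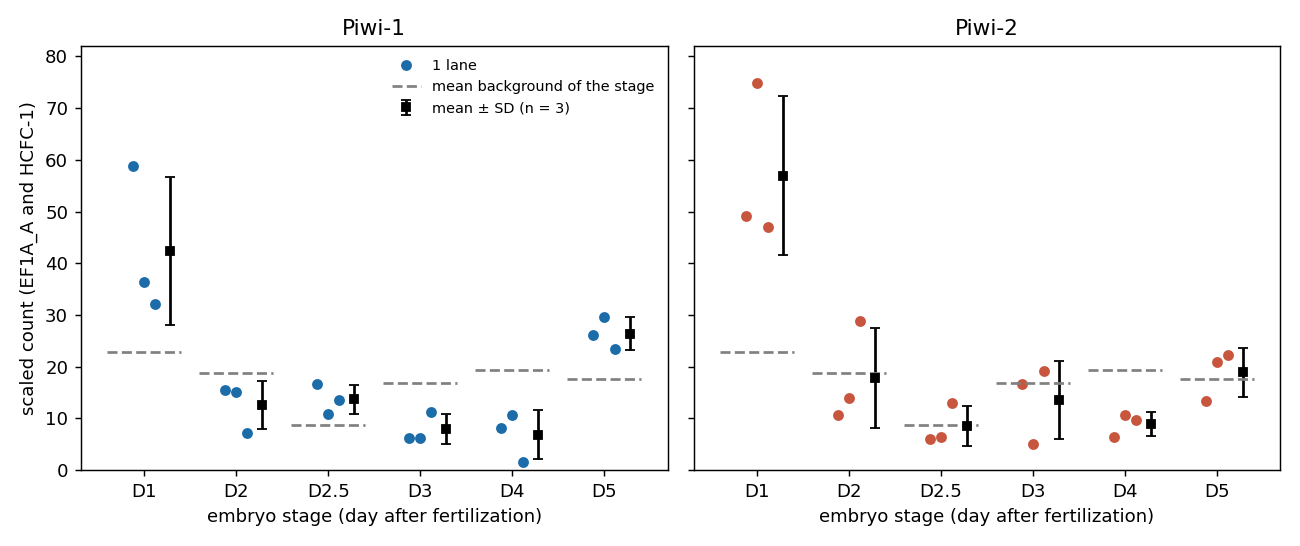
Scaled counts (y axis) of Piwi-1 (left) and Piwi-2 (right) by embryo stage (x axis). Points are lanes, squares with bars are the mean ± SD of 3 lanes, and dashed lines are the mean background of the stage. D1 lies highest for both, with means of 42.4 and 57.0. The means of both probes at D2, D3 and D4 lie under the dashed lines, as does that of Piwi-2 at D2.5 (8.47 against 8.72).

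Within the first run the scaled counts of both probes differed over D1, D2, D2.5 and D3 in the main scaling, with every D3 lane within background. The exact permutation test of the F statistic over all assignments of the 12 lanes to the 4 stages gave p = 0.00331 for Piwi-1 and p = 0.00987 for Piwi-2, on log2(scaled count + 1). Piwi-1 gave p = 0.131 in the same exact test when lanes were scaled by the positive controls only. Piwi-2 gave p = 0.0611 in this exact permutation test without the 3 lanes of fewest EF1A_A counts.

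The fit across all 41 tested probes (edgeR, quasi-likelihood test, Benjamini-Hochberg adjustment over the 41, threshold 0.05) covered both runs. Over all 6 stages 12.2% of the 41 passed and neither Piwi probe did (edgeR adjusted p = 0.0686 for Piwi-1 and 0.0586 for Piwi-2). Both passed in DESeq2, with adjusted p = 0.00635 and 0.00482. Each stage was then set against D1. At D2 neither passed in edgeR, where 0% of the 41 were called lower. The log2 fold change was −1.72 for Piwi-1 (SE 0.86, adjusted p = 0.236) and −1.69 for Piwi-2 (SE 0.88, adjusted p = 0.254). The scaled counts at D2 did not overlap those at D1 for either probe, at 7.21 to 15.5 against 32.1 to 58.7 for Piwi-1 and 10.6 to 28.9 against 47.0 to 74.7 for Piwi-2. Across all tested probes 4.88% lay wholly lower at D2 in this way, which is these 2 probes. In an exact permutation test of 3 lanes against 3, p cannot go below 0.1, and every comparison of a later stage with D1 gave that value for both probes.

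Piwi-2 fell at D2.5, to 8.47 scaled counts against 57.0 at D1. That D2.5 mean was under the mean D2.5 background of 8.72, with 2 of 3 lanes above their own, so the size of the fall is limited by background. The edgeR log2 fold change of Piwi-2 was −2.73 (SE 0.91, adjusted p = 0.0266). It was the only probe called lower (2.44% of the 41), whereas 39% were called higher. Piwi-1 did not pass there, with −1.62 (SE 0.85, edgeR adjusted p = 0.112). The mean of the negative controls was lower at D2.5 as well, at 3.59 ± 1.18 scaled counts against 7.74 ± 3.47 at D1 (SD, n = 3). In raw counts it was 5.17 at D2.5 and 5.75 at D1, with lane factors of 1.33 to 1.55 and of 0.468 to 1.21. Of the 8 negative controls, 3 lay wholly lower at D2.5 than at D1, against 0 in each of the other comparisons. The part of the negative controls in the result was not tested beyond the alternative scaling that follows. With the negative control mean as the factor the log2 fold change of Piwi-2 was −1.69 (edgeR adjusted p = 0.0916). The call also ended without any 1 of the 3 D1 lanes or the 3 D2.5 lanes (edgeR adjusted p between 0.0601 and 0.1002), and when only the 12 lanes of the run were fitted (0.0783). It ended as well with HCFC-1 alone (edgeR adjusted p = 0.134), with positive controls only (0.113) and with the negative control mean subtracted (0.0594).

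Both probes fell at D3 in edgeR. Piwi-1 had 7.94 scaled counts at D3 against 42.4 at D1, with a log2 fold change of −2.39 (SE 0.88, adjusted p = 0.0209). Piwi-2 had 13.6 against 57.0, with −2.07 (SE 0.89, edgeR adjusted p = 0.0371). Since no D3 lane was above background, the fall was also computed with the mean D3 background of 16.8 in place of the D3 level. Piwi-1 was then 2.53-fold lower and Piwi-2 3.40-fold lower than at D1. These are ratios of means and not strict bounds. The background of D3 replicate 1 alone was 23.7 scaled counts. The D1 mean of Piwi-1 also includes replicate 2, which was under its own background. Of the 41 probes, 7.32% were called lower at D3 and 73.2% higher. Fitting only the 12 lanes of the run ended both calls (edgeR adjusted p = 0.0887 for Piwi-1 and 0.129 for Piwi-2), as did scaling by HCFC-1 alone (0.132 and 0.204) or by positive controls only (0.0865 and 0.109). Piwi-1 was also lost without D1 replicate 1 (0.0641 in edgeR). Piwi-2 was lost without any 1 of 12 lanes (0.0502 to 0.115 in edgeR), which were all lanes of D1 and D3, D2 replicate 1, D2.5 replicates 1 and 2, D4 replicate 1, D5 replicate 1 and D5 lane a.

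The D4 and D5 lanes were read in the second run, so stage and run cannot be told apart in their comparisons with D1. At D4 Piwi-1 had 6.85 scaled counts against 42.4 at D1, and Piwi-2 8.94 against 57.0. The edgeR log2 fold change was −2.58 for Piwi-1 (SE 0.89) and −2.66 for Piwi-2 (SE 0.91). The adjusted p was 0.0169 for either probe, among 7.32% of probes called lower. With the mean D4 background of 19.3 in place of the D4 level they were 2.19-fold and 2.95-fold lower, again as ratios of means. Both calls ended with HCFC-1 alone as the reference (edgeR adjusted p = 0.0966 for Piwi-1 and 0.1001 for Piwi-2). The Piwi-1 call ended without D1 replicate 1 (edgeR adjusted p = 0.0630) or D4 lane b (0.0732), and that of Piwi-2 without D4 replicate 1 (0.0585) or lane a (0.0524). At D5 neither passed, and 2.44% of the 41 were called lower. Piwi-1 had 26.4 scaled counts against 42.4 at D1, and Piwi-2 had 18.9 against 57.0. Piwi-2 did pass there in DESeq2 (log2 fold change −1.59, adjusted p = 0.0486).

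Between D4 and D5, within the second run, both probes had higher counts in every D5 lane than in any D4 lane. Piwi-1 had 35, 24 and 21 raw counts at D5, against 9, 10 and 1 at D4. Piwi-2 had 18, 17 and 20 at D5, against 7, 10 and 6 at D4. D5 lanes a and b share a tag and were the most alike of any lanes of 1 embryo stage (chi-square per degree of freedom of 2.47, against 100.3 and 106.8 with D5 replicate 1). They are counted here as 2 of the 3 biological samples that the labels give at D5, and leaving out lane a or lane b gave log2 fold changes of 1.81 or 1.98 for Piwi-1 and 0.99 or 0.94 for Piwi-2. Of the numbered lanes there was 1 per stage, with 35 counts at D5 against 9 at D4 for Piwi-1 and 18 against 7 for Piwi-2. In raw counts 9.76% of the 41 probes did not overlap in this direction, and 12.2% in scaled counts. The log2 fold changes were 1.90 (SE 0.87, edgeR adjusted p = 0.546) for Piwi-1 and 1.07 (SE 0.88, edgeR adjusted p = 0.982) for Piwi-2. Since no D4 lane of either was above background, these rest on D4 counts within background. With the mean D4 background of 19.3 in place of the D4 level, the D5 mean of Piwi-1 was 1.37-fold higher. No fold can be given for Piwi-2, whose D5 mean of 18.9 was under that background. No probe was called in either direction (0%) by edgeR, DESeq2 or limma, with 3 higher at an unadjusted p under 0.05 in edgeR and 1 each in DESeq2 and limma. The exact permutation test of 3 against 3 gave p = 0.1 for each probe, the smallest it can give. The mean negative control was 6.24 ± 1.26 scaled counts at D5 and 6.75 ± 0.62 at D4 (SD, n = 3). Whether background had a part in the higher D5 counts was not tested. The D5 level of Piwi-1 was above background in 3 of 3 lanes and that of Piwi-2 in 1 of 3.

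**Figure D3:**
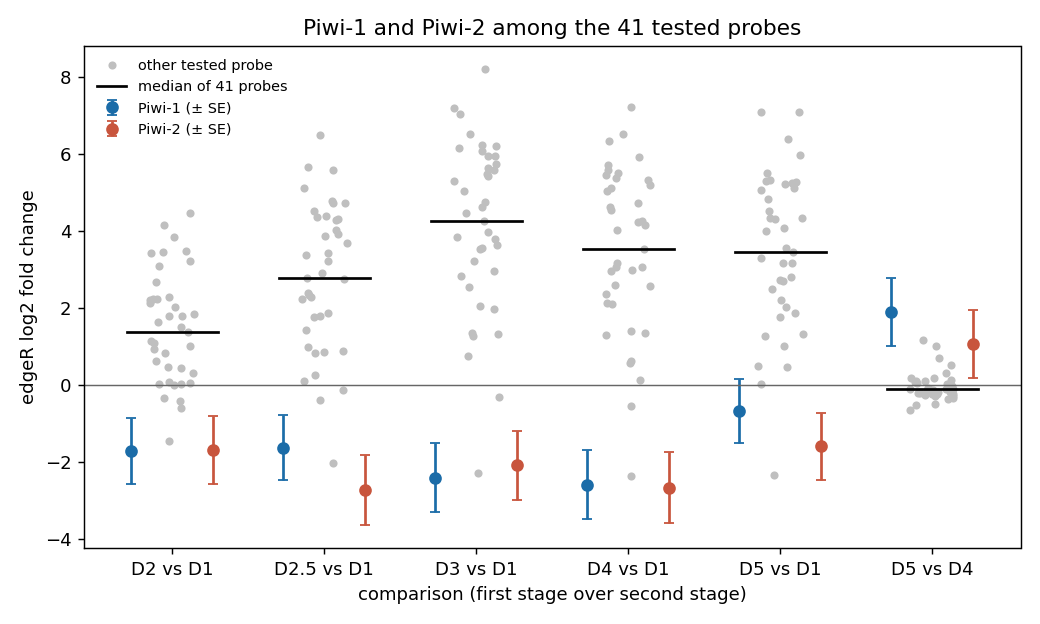
Log2 fold changes from the edgeR fit (y axis) in 6 comparisons of embryo stages (x axis, first stage over second). Coloured points with bars are Piwi-1 and Piwi-2 ± SE, grey points the other tested probes and black lines the median of the 41. Both Piwi probes lie under 0 in every comparison with D1, where the medians lie between 1.38 and 4.26, and both lie above 0 in D5 vs D4.

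The medians of all 41 probes moved the other way, to log2 fold changes against D1 of 1.38 (D2), 2.78 (D2.5), 4.26 (D3), 3.54 (D4) and 3.46 (D5). Only 6 of the 49 target and reference probes were above background in all 3 D1 lanes. Many of these fold changes thus start from D1 counts within background, and their size is not a measured one. Among the 41, the number with a negative log2 fold change was 6, 5, 4, 4 and 3 in the same order, and both Piwi probes were among the 3 lowest each time. TMM and DESeq2's size factors, which are set by the tested probes themselves, brought the D3 median to 0.34 and 0.0093, and the 2 Piwi probes then had log2 fold changes between −5.76 and −6.34. The sign was the same in all 402 alternative estimates, counted over both Piwi probes and the 6 comparisons. Many of these refit the same lanes less 1 with the same lane factors, so they are not independent. Scaled counts of both probes did not overlap in any of the 6 comparisons. The sign of those refits was therefore fixed in advance, and their number is no test of it.

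The 2 Piwi probes were also set against each other within a lane, where scaling cancels. Probes differ in efficiency, so only a change in the ratio can be read. The mean log2 ratio of Piwi-2 over Piwi-1 (± SD of 3 lanes) was 0.44 ± 0.66 in D1 lanes, 0.45 ± 1.36 in D2 lanes, −0.77 ± 0.69 in D2.5 lanes and 0.62 ± 0.88 in D3 lanes. In the second run it was 0.74 ± 1.61 in D4 lanes and −0.51 ± 0.44 in D5 lanes. Over D1 to D3 no change was shown (exact permutation test, p = 0.320). At D3 and D4, and in D2 replicate 3 (log2 ratio 2.00), both counts were within background, so the ratio there describes background. One of the counts was within background in D1 replicate 2, D2.5 replicate 2, D5 replicate 1 and D5 lane a. The test over D1 to D3 includes such lanes, so it says little about a change in the ratio.

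Adult testes carried Piwi-1 but no measured Piwi-2. Piwi-1 had 579, 521 and 565 raw counts in the 3 testes lanes, over backgrounds of 134, 127 and 136. Piwi-2 had 98, 116 and 105, under the background in every lane, and within the range of the negative controls in 2 of the 3. The negative controls themselves averaged 60 to 63.5 counts in testes, against 3.00 to 8.13 in embryos. Relative to the mean negative control of its lane, Piwi-1 stood at 9.04 ± 0.56 in testes and 6.33 ± 3.67 at D1, and Piwi-2 at 1.73 ± 0.15 in testes and 7.71 ± 1.19 at D1 (SD, n = 3 lanes). With the lane's background in place of the unmeasured Piwi-2 count, the log2 ratio of Piwi-2 over Piwi-1 in testes was at most −2.11, −2.03 and −2.06 in the 3 lanes, against a mean of 0.44 ± 0.66 at D1. Testes are 1 sample in a run of their own, so no test applies and tissue and run cannot be told apart.

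**Figure D4:**
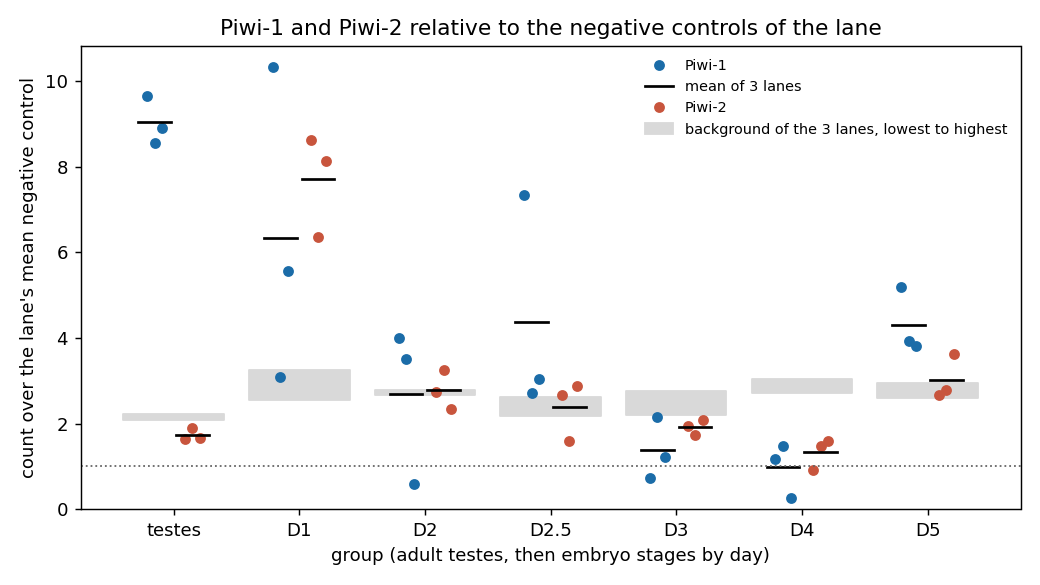
Count of Piwi-1 and Piwi-2 divided by the mean of the 8 negative controls of the same lane (y axis) in testes and the 6 embryo stages (x axis). Points are lanes, black lines means of 3 lanes, and grey bands span the backgrounds of the 3 lanes. The dotted line marks a count equal to the mean negative control. In testes Piwi-1 averages 9.04, far above the band, and Piwi-2 averages 1.73, under it, whereas at D1 both averages lie above it, at 6.33 and 7.71.

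To set testes beside embryos, lanes were scaled by HCFC-1, the only reference probe above background in all 21 lanes. Piwi-1 then averaged 240.5 ± 19.8 scaled counts in testes and 53.0 ± 20.2 at D1, the highest stage, a ratio of 4.54. That ratio was 10.5 with positive controls only, 40.1 in the authors' deposited signal values and 0.0454 with the sum of the target probes, which in testes was far above that of any embryo lane. HCFC-1 had 167 to 177 raw counts in testes, not far above background, and subtracting the negative control mean from both probes gave a ratio of 6.74. Piwi-2 in testes averaged 46.0 ± 2.59 scaled counts, under its background of 57.3 on that scale, against 69.3 ± 8.42 at D1. The deposited signal values, which hold the sum of EF1A_A and EF1A_B at 458 to 459 in every sample, list Piwi-2 at 164 ± 44.3 in testes and 54.9 ± 23.4 at D1 (SD, n = 3). In testes that sum rests on EF1A_B, with 180 to 240 raw counts, since EF1A_A had 12 to 22.

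The other germ cell genes on the panel were 3 probes annotated as SYCP1, which joins paired chromosomes in meiosis, and HFM1 (comp293440), a helicase of meiotic crossing over. All 4 were above background in all 3 testes lanes, as was the probe annotated as myosin-7B, a muscle gene, at 1691 to 1760 counts. The SYCP1 probes had 4853 to 5231 (comp292635), 503 to 550 (comp288706) and 174 to 198 counts (comp292635_9), and HFM1 5815 to 6015. Lane backgrounds in testes were 127 to 136. The share of all probes above background in testes was not counted, so detection there cannot be read as particular to these genes. The myosin-7B probe, comp292635_13, shares the root of its identifier with the SYCP1 probes comp292635 and comp292635_9. Of the 4, 3 passed the filter for testing, with 0 called at D2 or D2.5 against D1, and the same 1 lower and 1 higher at each of D3, D4 and D5. Of all 41 probes, the share called higher was 73.2% (D3), 61% (D4) and 56.1% (D5), and the share called lower 7.32%, 7.32% and 2.44% in the same order. The lower one was the SYCP1 probe comp292635_9, with 43.2 ± 36.2 scaled counts at D3 and 211 ± 155 at D1 (SD, n = 3; edgeR log2 fold change −2.28, adjusted p = 0.0371). The higher one was HFM1, with 37.4 ± 42.9 at D3 and 1.39 ± 0.68 at D1, where it was within background (edgeR log2 fold change 4.74, adjusted p = 0.0087). With TMM that call ended (log2 fold change 0.62, edgeR adjusted p = 0.514), as it did when size factors of DESeq2 replaced the references (0.28 in the edgeR fit, adjusted p = 0.837), and the SYCP1 call with HCFC-1 alone (edgeR adjusted p = 0.0965) and positive controls only (0.0865). Leaving out 1 lane also ended these calls. HFM1 was lost without D3 replicate 3 (edgeR adjusted p = 0.0708). The SYCP1 probe was lost without any 1 of 8 lanes (edgeR adjusted p between 0.0542 and 0.130), which were D1 replicates 1 and 3, D3 replicates 1 and 2 and lanes a and b of D4 and of D5. At D4 the SYCP1 call ended without any 1 of 7 lanes (D1 replicates 1 and 3, all D4 lanes, D5 lanes a and b) and the HFM1 call without any 1 of 3 (D1 replicates 1 and 3, D4 lane a), with edgeR adjusted p up to 0.135 and 0.105. At D5 the SYCP1 call ended without any 1 of 9 lanes (D1 replicates 1 and 3, D3 replicates 1 and 2, D4 lanes a and b, all D5 lanes) and the HFM1 call without any 1 of 4 (D1 replicates 1 and 3, D5 lanes a and b), with edgeR adjusted p up to 0.156 and 0.0916. HFM1 was lost at D4 and D5 with TMM too (edgeR adjusted p = 0.357 and 0.437) and with size factors of DESeq2 (0.618 and 0.677), and the SYCP1 probe with HCFC-1 alone (0.0609 and 0.0580 in edgeR) and, at D5, positive controls only (0.0526). The other SYCP1 probe that was tested, comp292635, had 57.7 ± 71.9 scaled counts at D3 and 33.6 ± 29.4 at D1.

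The probes whose scaled levels over the 18 embryo lanes ran most like those of the Piwi genes were found by rank correlation. For Piwi-1 these were comp293586 (Spearman's rho 0.61), annotated as aspartate aminotransferase; Piwi-2 (0.58) and the SYCP1 probe comp292635_9 (0.36). For Piwi-2 they were Piwi-1 (0.58), comp292635_9 (0.55) and comp292635 (0.29). These values share the scaling factor of each lane and many lie within background. In raw counts, which share the input of each lane, Piwi-1 and Piwi-2 had a rho of 0.73.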

How the data were processed

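The authors deposited raw barcode counts per probe and lane, whole numbers of at least 1, per the file headers and the values, and a second table of normalized signal values. The deposited signal values were used only as an alternative; the software behind both tables is not given in the sources used here. Lanes were assigned by the names of their columns. Probes above background (mean + 2 SD of 8 negative controls) in at least 3 of 18 embryo lanes were tested, less the 2 scaling references, which left 41 of 47. Counts were fitted with edgeR 4.0.16 in R 4.3.3 (robust quasi-likelihood, stage as factor, common dispersion 0.858), with the standard error taken as the log2 fold change over the square root of F. limma 3.58.1, DESeq2 1.42.0 and other scalings, backgrounds and lane sets were alternatives. Log2 levels used a pseudocount of 1, and tests were two-sided. The fit was also run on simulated counts, but with a lower dispersion than these data and with the lowest probe means raised. Its error rates at the spread and counts seen here were therefore not tested. Nothing says how the embryo samples of a stage were separated beyond the word biological. The p-values treat them as independent, which was not tested, and D5 lanes a and b share a tag. The edgeR fit estimates the spread of a probe over all stages and both runs. The labels name both Trizol and a Direct-zol kit for extraction. Named genes were the 2 Piwi probes, the scaling references, a germ cell list and, per Piwi probe, the 3 highest rank correlations. The members and lists were chosen with earlier results of these data known.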

Additional observations from a re-analysis of the deposited data

How the results depend on the processing

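Values are log2 fold changes against D1 unless stated, with edgeR's adjusted p where given, and the cause of a change was not tested. The sign was the same in all 402 alternative estimates, counted over both probes and the 6 comparisons, which share most of their lanes. For the refits without 1 lane it was fixed in advance, since the scaled counts compared did not overlap. Scalings set by the tested probes gave larger falls. For Piwi-1 at D2, TMM gave −2.93, DESeq2's size factors −3.42 and the sum of the target probes −2.07, at D2.5 −3.41, −3.77 and −2.17, and at D5 −2.76, −3.27 and −2.11, all past the threshold. For Piwi-2 they gave −2.71, −3.25 and −2.10 at D2, and −4.02, −4.49 and −3.30 at D5, also past it. At D2.5 Piwi-1 passed with EF1A_A alone (−1.95) and in DESeq2 (−1.63), and at D5 Piwi-2 passed in DESeq2 (−1.59). Over the 6 stages, the adjusted p of Piwi-1 and Piwi-2 was 0.0238 and 0.0268 with EF1A_A alone, 0.00164 and 0.000127 under TMM, 0.000776 and 3.35e-05 under the size factors of DESeq2, 2.3e-07 and 8.69e-11 under the target sum, 0.00635 and 0.00482 in DESeq2, and 0.00603 and 0.0151 in limma on the deposited signal values. Other settings ended calls. With positive controls only, Piwi-1 had −2.10 at D3, and Piwi-2 −1.96 at D2.5 and −1.85 at D3. With HCFC-1 alone, Piwi-1 had −2.14 at D3 and −2.44 at D4, and Piwi-2 −2.37 at D2.5, −1.83 at D3 and −2.46 at D4. With the negative control mean subtracted, Piwi-2 had −3.28 at D2.5 and −2.86 at D3, and with no filter −2.07 at D3. Fitting only the 2 stages compared gave −2.39 at D3 and −2.57 at D4 for Piwi-1 and −2.07 at D3 for Piwi-2. Chosen after seeing the data were the negative control mean as the factor (Piwi-2 −1.69 at D2.5), leaving out the 3 lanes of fewest EF1A_A counts (Piwi-1 −2.36 at D3, Piwi-2 −2.49 at D2.5 and −1.997 at D3) and the first run alone (Piwi-1 −2.39 at D3, Piwi-2 −2.73 at D2.5 and −2.07 at D3). With a replicate block on the numbered lanes, Piwi-1 had −2.33 at D3 (adjusted p = 0.0623) and −2.56 at D4 (0.397), and Piwi-2 −2.88 at D2.5 (0.0560), −2.23 at D3 (0.0704) and −2.999 at D4 (0.314). No tie between same-numbered lanes is given beyond the number. Of 6 pairs of stages, 1 had every correlation of deviations above 0.1. This was D2.5 with D3, at 0.386, 0.621 and 0.903 for replicates 1, 2 and 3. With 3 lanes per stage, such correlations cannot show whether the lanes were paired.

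Leaving out 1 lane at a time gave, for Piwi-1, −1.89 to −1.41 at D2, −1.79 to −1.31 at D2.5, −2.73 to −2.08 at D3, −3.02 to −2.15 at D4, −0.85 to −0.37 at D5 and 1.47 to 2.34 for D5 against D4, and, for Piwi-2, −2.20 to −1.42, −3.16 to −2.49, −2.44 to −1.66, −2.82 to −2.42, −1.72 to −1.34 and 0.87 to 1.27 in the same order. The adjusted p over the 6 stages then lay between 0.0761 and 0.205 for Piwi-1 and between 0.0487 (without D3 replicate 2) and 0.169 for Piwi-2. The exact permutation p over D1 to D3 lay between 0.00169 and 0.00792 for Piwi-1, between 0.00305 and 0.0431 for Piwi-2, and between 0.148 and 0.668 for their ratio. That p was 0.131 for Piwi-1 with positive controls only, and 0.0611 for Piwi-2 without the 3 lanes of fewest EF1A_A counts. Piwi-2 was above background in 17 of 18 lanes with the mean of the negative controls as the limit and in 5 with the mean + 3 SD. Testes over the highest embryo stage, 4.54 for Piwi-1 and 0.664 for Piwi-2, became 10.5 and 1.66 with positive controls only, 0.0454 and 0.00586 under the target sum and, by alternatives chosen after seeing the data, 40.1 and 2.99 in the deposited signal values and 6.74 and 0.437 with the negative control mean subtracted from the Piwi probe and HCFC-1. Subtracting it from Piwi-2 alone gave 0.323. Without 1 testes lane the ratio was 4.37 to 4.74 for Piwi-1 and 0.643 to 0.680 for Piwi-2. Counts at or under background at D3 and D4 limit what a fold change there can show, as do stage means under background at D2 and, for Piwi-2, at D2.5.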
